A study of Mus musculus with 6 samples.

Results

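The 10 genes described here encode proteins of the meiotic chromosome axis and of the synaptonemal complex. They were taken by symbol from the deposited mRNA-seq table (*Sycp1*, *Sycp2*, *Sycp3*, *Syce1*, *Syce2*, *Tex12*, *Hormad1*, *Stag3*, *Rec8* and *Smc1b*), and all 10 were found among its 19489 genes. The series asked what Dppa3, a maternal factor also made in naïve embryonic stem cells (ESCs), does when it is overexpressed in mouse ESCs. It holds 6 libraries, numbered 1 to 3 within each genotype. Libraries of the same number are called a pair here, although no source pairs them. Each pair is 1 library of control (Con) ESCs, labelled wild type and by the methods given the empty pLch3.7 vector, and 1 library of *Dppa3* OE ESCs, labelled *Dppa3* over expression and given the same vector carrying *Dppa3* behind its CAG promoter, which is active in most cell types. All cells were grown in serum with LIF, a cytokine that keeps ESCs undifferentiated, and were taken through puromycin selection. The methods describe both stable lines from picked colonies and transiently transfected cells, and do not say which kind, or which ESC line, was used for the RNA. The libraries numbered 3 carry the label D7 in both genotypes, which no source explains. With 1 library per genotype, the D7 label and pair number 3 cannot be told apart. A different 129 substrain name is given to each library, and these names run in sample order. The methods state in general that results came from independent experiments, but neither they nor the labels say this of the libraries numbered within a genotype, so p-values given here reflect the spread between libraries, part of which may be technical.

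In early meiosis each replicated chromosome is folded into loops along a protein axis. The axis is built on cohesin rings that carry meiosis-specific subunits (SMC1B, STAG3 and REC8, in place of SMC1A, STAG1 or STAG2, and RAD21) and on the coiled-coil proteins SYCP2 and SYCP3, with HORMAD1 loaded where homologous chromosomes have not yet joined. As homologs pair, SYCP1 molecules span the gap between their axes like the teeth of a zipper, and SYCE1, SYCE2 and TEX12 form the central element that holds the SYCP1 ends together. ESCs divide by mitosis and build no synaptonemal complex, and genes of this kind are held down in somatic cells by DNA methylation and by PRC1.6, a Polycomb complex whose MGA-MAX and E2F6 subunits recognise E-box and E2F motifs.

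All 10 genes gave reads in each of the 6 libraries. Levels are given as FPKM, in which a gene's fragments are divided by the length of its transcript and by the size of the library, so that genes can be compared. Over the 6 libraries the mean level was highest for *Syce2* (87.9 FPKM), *Stag3* (50.2) and *Syce1* (32.3), followed by *Sycp3* (21.8), *Hormad1* (17.7), *Smc1b* (17.2) and *Rec8* (13.9). *Sycp1* (3.90), *Tex12* (3.14) and *Sycp2* (2.14) were the lowest. Neighbours in this order overlapped in their ranges over the 6 libraries, except *Rec8* and *Sycp1*, between which lay a gap. Cohesin, axis and central element genes were each found on the upper side of that gap, and axis and central element genes on the lower side as well.

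The label of the cells was checked against marker genes. All 9 ESC markers, such as *Pou5f1* and *Nanog*, were found at a summed level of 3686 to 4575 FPKM in the 6 libraries. *Dppa5a* alone gave 1238 to 2268 FPKM of this sum and was highest in the D7 pair. *Pou5f1* was at 384 and 312 FPKM in the D7 pair, against 575 to 683 FPKM in pairs 1 and 2. In edgeR 4 of the 9 markers were lower in the D7 pair than in the other libraries and 0 higher, against 3.06% and 6.77% of genes. The summed level of 10 spermatocyte and spermatid markers was 2.10 to 4.43 FPKM, with *Prm1*, *Prm2*, *Tnp1* and *Tnp2*, which package sperm DNA, at 0 to 0.30 FPKM, and that of 8 oocyte markers was 3.61 to 9.74 FPKM. In bulk RNA, a change in the number of cells that express a gene and a change in RNA per cell cannot be told apart. The summed level of 9 fibroblast and feeder markers was 33.8 to 61.2 FPKM in pairs 1 and 2 and 133 FPKM in the Con and 321 FPKM in the OE library labelled D7. Most of the sum in pairs 1 and 2 was *Thy1*, at 30.8 to 53.0 FPKM, which was lower in the D7 pair (23.0 and 21.0 FPKM). *Col1a1* was at 0.80 to 1.81 FPKM in pairs 1 and 2 and at 38.0 and 129 FPKM in the D7 pair. *Dppa3* itself was found at 6.09, 3.89 and 26.2 FPKM in Con ESCs of pairs 1, 2 and D7 and at 279, 279 and 131 FPKM in *Dppa3* OE ESCs, so each library matched its genotype label, with the smallest gap in the D7 pair. Estimated counts summed to 17408954 to 18176939 per library.

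Promoter sequences were taken from RefSeq (GRCm38.p6), from 250 bases before to 50 bases after each listed gene start, and all 10 genes matched, with 12 windows. They are shown for the 4 genes on which the comparisons below turn: *Hormad1* and *Smc1b*, which passed the test between OE and Con ESCs of pairs 1 and 2 when the pair was entered as a block (*Smc1b* in edgeR but not in DESeq2) and did not pass without the block or over all 6 libraries, *Sycp3*, which differed most between pairs 1 and 2, and *Syce1*, which passed the test for the D7 pair. Capitals mark the E-box CACGTG and the E2F core TCCCGC or its complement GCGGGA, the only letters searched, on both strands. No match overlapped another.
*Hormad1*, chr3:95559427-95559726, plus strand: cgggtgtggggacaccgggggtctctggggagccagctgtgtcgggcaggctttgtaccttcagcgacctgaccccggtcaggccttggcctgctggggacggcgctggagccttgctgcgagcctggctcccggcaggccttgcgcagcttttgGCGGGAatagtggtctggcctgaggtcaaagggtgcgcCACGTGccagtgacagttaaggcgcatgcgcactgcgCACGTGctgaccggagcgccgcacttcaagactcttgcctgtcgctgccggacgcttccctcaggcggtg
*Smc1b*, chr15:85131908-85132207, minus strand: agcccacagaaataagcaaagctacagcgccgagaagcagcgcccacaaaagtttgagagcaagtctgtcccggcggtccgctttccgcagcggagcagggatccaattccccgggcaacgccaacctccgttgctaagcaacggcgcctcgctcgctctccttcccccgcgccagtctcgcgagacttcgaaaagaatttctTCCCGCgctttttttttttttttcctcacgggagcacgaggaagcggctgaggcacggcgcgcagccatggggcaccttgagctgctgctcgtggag
*Sycp3*, chr10:88459337-88459636, plus strand: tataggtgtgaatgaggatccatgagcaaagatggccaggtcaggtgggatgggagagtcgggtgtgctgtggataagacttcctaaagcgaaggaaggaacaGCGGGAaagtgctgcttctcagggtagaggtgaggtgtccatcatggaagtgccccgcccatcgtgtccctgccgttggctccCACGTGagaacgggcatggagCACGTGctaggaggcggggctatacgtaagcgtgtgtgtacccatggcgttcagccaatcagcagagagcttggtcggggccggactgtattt
*Syce1*, chr7:140787805-140788104, minus strand: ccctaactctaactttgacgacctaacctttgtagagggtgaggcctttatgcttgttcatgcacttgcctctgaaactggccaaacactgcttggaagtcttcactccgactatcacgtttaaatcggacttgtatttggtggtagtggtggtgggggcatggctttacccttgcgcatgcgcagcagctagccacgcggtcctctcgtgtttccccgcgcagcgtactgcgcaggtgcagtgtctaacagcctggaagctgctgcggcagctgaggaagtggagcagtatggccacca

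The *Hormad1* window held 2 E-boxes, 57 and 20 bases before the start, and an E2F core 95 bases before it. *Sycp3* had the same kinds of match, with E-boxes 64 and 43 bases and an E2F core 147 bases before the start. *Smc1b* held an E2F core alone, 47 bases before the start, and *Syce1* held neither. Of the 10 genes, 6 had an E-box, 8 had an E2F core and 6 (*Hormad1*, *Sycp1*, *Sycp3*, *Stag3*, *Syce2* and *Tex12*) had both in 1 window. The window of *Stag3*, chr5:138280259-138280558, lay inside the annotated span of the gene, which starts at 138272514 on the plus strand. Of all 27018 genes with a window in the reference, 8.1% had the E-box, 22.1% the E2F core and 2.32% both in 1 window. Counted over the 11742 windows with as many CpG dinucleotides as those of the 10 genes (10 to 33), the shares were 10.8%, 36.4% and 3.78%. Both were present in 1 window in 0 of 8 further axis, cohesin and synaptonemal complex genes, 0 of 8 mitotic cohesin genes and regulators, 2 of 20 genes of meiotic recombination and telomere attachment and 3 of 9 genes of meiotic entry and germ cell identity with a window. The motifs were chosen for what is known of these promoters, so the counts describe the sequences and test no factor.

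**Figure D1:**
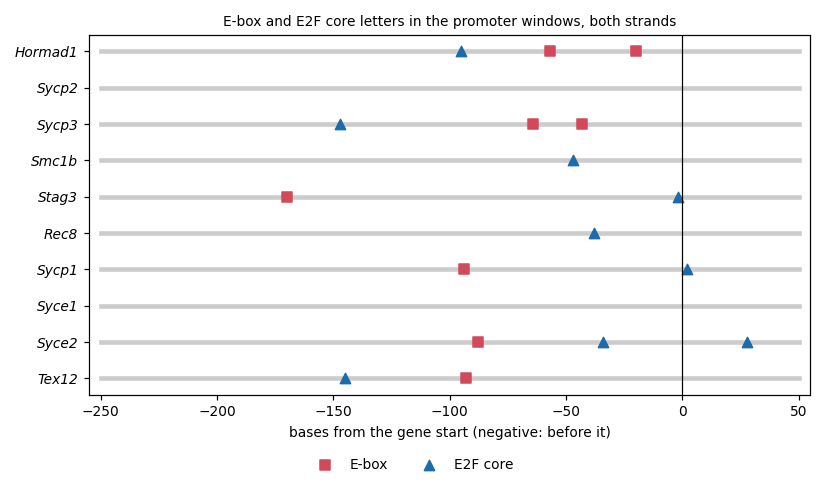
Position of each E-box and E2F core match in the promoter windows, in bases from the gene start (negative values lie before it), 1 line per gene. For *Hormad1* the first window and for *Syce2* the second are drawn, and the *Stag3* window lies inside the annotated span of the gene. Matches lay before or within 28 bases after the start, and *Sycp2* and *Syce1* had none.

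Among the axis genes, *Hormad1*, whose product marks unsynapsed axes, had the clearest difference between genotypes. It was found at 10.99, 19.6 and 10.4 FPKM in Con ESCs of pairs 1, 2 and D7 and at 21.1, 35.7 and 8.57 FPKM in *Dppa3* OE ESCs. In pairs 1 and 2 both OE libraries lay above both Con libraries, whereas the OE library of the D7 pair was the lowest of the 6. *Sycp3*, the core filament protein of the axis, was found at 7.69, 29.4 and 28.8 FPKM in Con ESCs and at 11.7, 26.6 and 26.4 FPKM in *Dppa3* OE ESCs. Both libraries of pair 1 were low, the other 4 lay within a narrow band, and the genotypes overlapped. In the GENCODE annotation 660 of the 1264 exonic bases of *Sycp3* also belong to exons of *Chpt1*, a phospholipid synthesis gene on the opposite strand, and the counts of *Sycp3* were fractional in 5 of 6 libraries. No source states that counting used strand, so reads of these genes cannot be told apart there. *Chpt1* itself was at 5.00, 8.24 and 8.64 FPKM in Con and 5.48, 7.66 and 10.2 FPKM in OE ESCs, again lowest in pair 1. *Sycp2*, the partner of SYCP3, was found at 1.04, 2.37 and 2.36 FPKM in Con and 1.27, 3.0 and 2.78 FPKM in OE ESCs. Its order of libraries was similar to that of *Sycp3*, with pair 1 lowest.

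The cohesin subunit genes did not share a single order. *Smc1b*, which encodes the meiotic SMC1 ring subunit, was found at 7.37, 24.2 and 14.6 FPKM in Con ESCs and at 14.8, 31.2 and 11.2 FPKM in *Dppa3* OE ESCs of pairs 1, 2 and D7. OE lay above Con in pairs 1 and 2 and below it in the D7 pair, and Con of pair 2 lay above OE of pair 1. *Stag3*, the meiotic partner of the kleisin subunit, was found at 38.8, 70.2 and 35.9 FPKM in Con and 55.1, 70.4 and 31.0 FPKM in OE ESCs. Pair 2 was highest, the D7 pair lowest, and the genotypes were within 1 FPKM in pair 2. *Rec8*, the meiotic kleisin that closes the ring, varied least of these subunits, with 10.2, 15.5 and 15.2 FPKM in Con and 11.8, 14.3 and 16.3 FPKM in OE ESCs. Pair 1 held its lowest values in both genotypes.

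*Sycp1*, the transverse filament gene, stayed between 3.25 and 5.08 FPKM, with 3.54, 3.25 and 3.87 FPKM in Con and 3.32, 5.08 and 4.32 FPKM in OE ESCs. The genotypes overlapped, pair 2 held both its lowest and its highest value, and both D7 libraries lay above both of pair 1. Of the central element genes, *Syce1*, which binds the SYCP1 end, was found at 32.9, 40.4 and 14.5 FPKM in Con and at 44.6, 47.7 and 13.7 FPKM in OE ESCs. Its OE and Con libraries of pairs 1 and 2 did not overlap, and the D7 pair lay far below them. *Syce2*, which with TEX12 extends the central element, was found at 61.8, 128 and 77.3 FPKM in Con and 80.9, 121 and 58.5 FPKM in OE ESCs, with pair 2 highest. *Tex12* was found at 1.49, 4.0 and 1.62 FPKM in Con and 3.39, 6.47 and 1.85 FPKM in OE ESCs, higher in OE ESCs of each pair. These *Tex12* values rest on few reads, from 16 (95% exact Poisson interval 9.15 to 26.0) in Con of pair 1 to 67 (51.9 to 85.1) in OE of pair 2, an interval that covers counting error only.

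**Figure D2:**
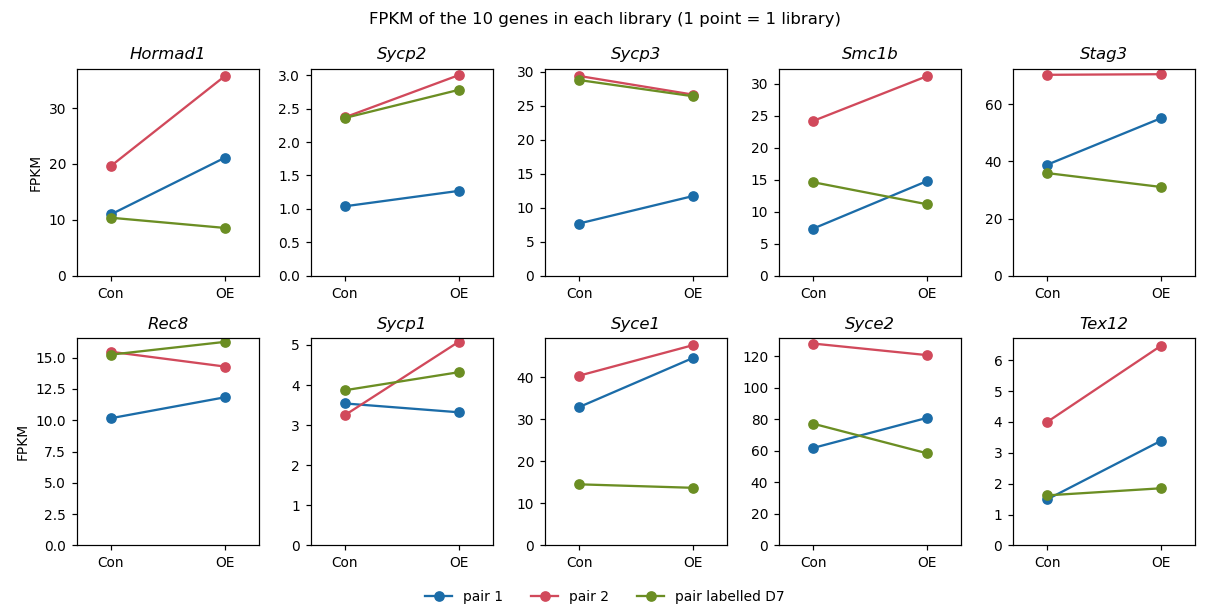
FPKM of each of the 10 genes (vertical axis from 0, 1 panel per gene) in Con and *Dppa3* OE libraries, with a line joining the libraries of a pair. *Hormad1* and *Smc1b* slope upward from Con to OE in pairs 1 and 2 and downward in the D7 pair, and *Sycp3* separates pair 1 from the other two pairs.

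The comparison of *Dppa3* OE with Con ESCs was made on pairs 1 and 2. Within pair 1, 9 of the 10 genes had a higher FPKM in OE than in Con ESCs, against 60.9% of the 13494 genes tested, and within pair 2, 7 of 10 against 56.4%. Higher in both pairs were 6 of 10 (*Hormad1*, *Smc1b*, *Stag3*, *Syce1*, *Tex12* and *Sycp2*), against 36.1% of genes. The OE/Con ratio of *Hormad1* was 1.92 and 1.82, that of *Smc1b* 2.01 and 1.29, and that of *Tex12* 2.28 and 1.62. *Syce1* had ratios of 1.36 and 1.18, and *Stag3* of 1.42 and 1.00. Of the 10 genes, 2 (*Hormad1* and *Syce1*) had both OE libraries above both Con libraries, against 11% of genes.

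With edgeR's quasi-likelihood test on the 4 libraries, which ignores the pairs, none of the 10 genes passed an adjusted p of 0.05 (0% of genes passed in either direction). An unadjusted p below 0.05 was reached by 0.43% of genes upward and 0.0296% downward, none of them among the 10. DESeq2 without the block also called 0 of the 10, and 0.0148% of genes higher. *Hormad1* averaged 15.3 ± 6.12 FPKM in Con and 28.4 ± 10.3 FPKM in OE ESCs (SD, n = 2 each), a log2 fold change of 0.82 (SE 0.37), with an edgeR adjusted p of 1. *Smc1b* averaged 15.8 ± 11.9 and 23.0 ± 11.6 FPKM (SD, n = 2 each), and its difference was smaller than the spread between libraries of a genotype. Libraries of the same number deviated together, and when the pair was entered as a block, *Hormad1* rose by a log2 fold change of 0.82 (SE 0.12, 1.77-fold, edgeR adjusted p = 0.00112) and *Smc1b* rose by 0.62 (SE 0.12, 1.53-fold, edgeR adjusted p = 0.0122). These 2 of 10 compare with 0.763% of all genes called higher and 0.126% called lower in that fit. With DESeq2 and the same block, which called 0.237% of genes higher and 0.0148% lower, *Hormad1* had an adjusted p of 0.0103 and *Smc1b* of 0.104, so the call of *Smc1b* rested on edgeR.

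The other 8 genes did not pass with the block. *Tex12* had a log2 fold change of 0.84 (SE 0.32, edgeR adjusted p = 0.427), *Syce1* of 0.29 (SE 0.10, edgeR adjusted p = 0.272) and *Stag3* of 0.22 (SE 0.09, edgeR adjusted p = 0.516). *Sycp2*, *Sycp1*, *Sycp3*, *Syce2* and *Rec8* lay between 0.01 and 0.29, with edgeR adjusted p of 0.754 to 0.992. The median over the 10 genes was 0.26 on the log2 scale, against 0.00 over all genes tested. Without the block, these values depended on which library was left out. Such fits leave 1 library in a genotype, so the pairs are not balanced and the values include the difference between pairs. Without the Con library of pair 2 the log2 fold change was 1.22 for *Hormad1* and 1.53 for *Smc1b*. Without the Con library of pair 1 that of *Hormad1* was 0.51 and that of *Smc1b* -0.08, and without the OE library of pair 2 they were 0.43 and -0.07. *Tex12* was at 0.30 and 0.32 without these 2 libraries and at 1.61 without the Con library of pair 2.

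Including the D7 pair ended these calls. Over all 6 libraries, which contain the 4 above, 0 of the 10 genes passed in edgeR, with the block (0% of 13809 genes higher and 0.00724% lower) or without it (0% in either direction, with 0.905% of genes upward and 0.391% downward at an unadjusted p below 0.05). DESeq2 also called 0 of the 10, both without the block (0.0434% of genes higher and 0.00724% lower) and with it (0.42% and 0.0797%). With the block, *Hormad1* had a log2 fold change of 0.47 (SE 0.21, edgeR adjusted p = 0.591), *Smc1b* of 0.28 (SE 0.21, edgeR adjusted p = 0.736) and *Tex12* of 0.67 (SE 0.28, edgeR adjusted p = 0.57). Within the D7 pair the OE/Con ratio was 0.825 for *Hormad1*, 0.765 for *Smc1b*, 0.757 for *Syce2*, 0.865 for *Stag3*, 0.943 for *Syce1* and 0.917 for *Sycp3*. It was above 1 in 4 of the 10 genes, *Tex12* (1.14), *Sycp2* (1.18), *Sycp1* (1.12) and *Rec8* (1.07), against 54.5% of all genes. OE exceeded Con in all 3 pairs in 2 of the 10 (*Tex12* and *Sycp2*), against 21.6% of genes, and 4 of the 10 (*Hormad1*, *Smc1b*, *Stag3* and *Syce1*) were above Con in pairs 1 and 2 and below it in the D7 pair, against 14% of genes. The direct test of the difference in the OE effect gave -1.14 on the log2 scale for *Hormad1* (SE 0.66, edgeR adjusted p = 1) and -0.92 for *Smc1b* (SE 1.12, edgeR adjusted p = 1), and called 0% of genes, with 0.34% upward and 0.159% downward at an unadjusted p below 0.05 and none of the 10 among them. DESeq2 called 0.00724% of genes in each direction and 0 of the 10. The gap in *Dppa3* was also smaller in the D7 pair, where its level was 6.74 times that of pair 2 in Con ESCs and 0.470 times in OE ESCs. The part of that gap in these values was not tested.

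In 7 of the 10 genes the log2 difference between pairs 2 and 1 was larger than that between genotypes, the exceptions being *Hormad1*, *Syce1* and *Sycp1*. All 10 genes had a higher FPKM in pair 2 than in pair 1 in *Dppa3* OE ESCs (59% of all genes did), and 9 of 10 in Con ESCs (58.4%), the exception being *Sycp1* with a ratio of 0.918. For *Sycp3* the ratio of pair 2 to pair 1 was 3.82 in Con and 2.27 in OE ESCs, for *Smc1b* 3.28 and 2.11, for *Tex12* 2.68 and 1.91 and for *Sycp2* 2.28 and 2.36. *Syce1* had the smallest ratios of the genes that were higher in both genotypes, 1.23 and 1.07. In 7 of 10 genes both libraries of pair 2 lay above both of pair 1, as in 46.1% of genes.

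With genotype as a term, 8 of the 10 genes were higher in pair 2 and 0 lower in edgeR, against 26% of genes called higher and 25.4% called lower. The log2 fold change was 1.45 for *Sycp3* (SE 0.16, edgeR adjusted p = 1.98e-06), 1.28 for *Smc1b* (SE 0.12, edgeR adjusted p = 3.93e-07), 1.07 for *Sycp2* (SE 0.18, edgeR adjusted p = 1.19e-04) and 1.03 for *Tex12* (SE 0.32, edgeR adjusted p = 0.0118). It was 0.72 for *Syce2*, 0.70 for *Hormad1*, 0.52 for *Stag3* and 0.33 for *Rec8*, with edgeR adjusted p from 2.17e-05 to 0.0403. *Sycp1* (0.14, edgeR adjusted p = 0.519) and *Syce1* (0.10, edgeR adjusted p = 0.417) did not pass. The median of the 10 genes was 0.71 on the log2 scale, against 0.02 over all genes. Fits that left out 1 library had no genotype term and left 1 library in 1 of the pairs. Their values thus mix the difference between pairs with that between genotypes, and some calls were lost in them. Without the Con library of pair 1 *Tex12* was at 0.55, *Hormad1* at 0.35, *Stag3* at 0.30 and *Smc1b* at 0.83. *Tex12* was at 0.64 and *Hormad1* at 0.23 without the OE library of pair 2, and at 1.68 and 1.17 without the OE library of pair 1. With all 4 libraries the threshold was missed by *Rec8* without the filter on low values, and by *Tex12* and *Rec8* with DESeq2. DESeq2 called 11.7% of genes higher and 15% lower. The labels give these libraries a number only, and this comparison is one between replicates. It uses the same 4 libraries as that of the genotypes. Its p-values, like those with the block, rest on how alike the difference was in Con and OE ESCs. They do not rest on repeated cultures of a pair.

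**Figure D3:**
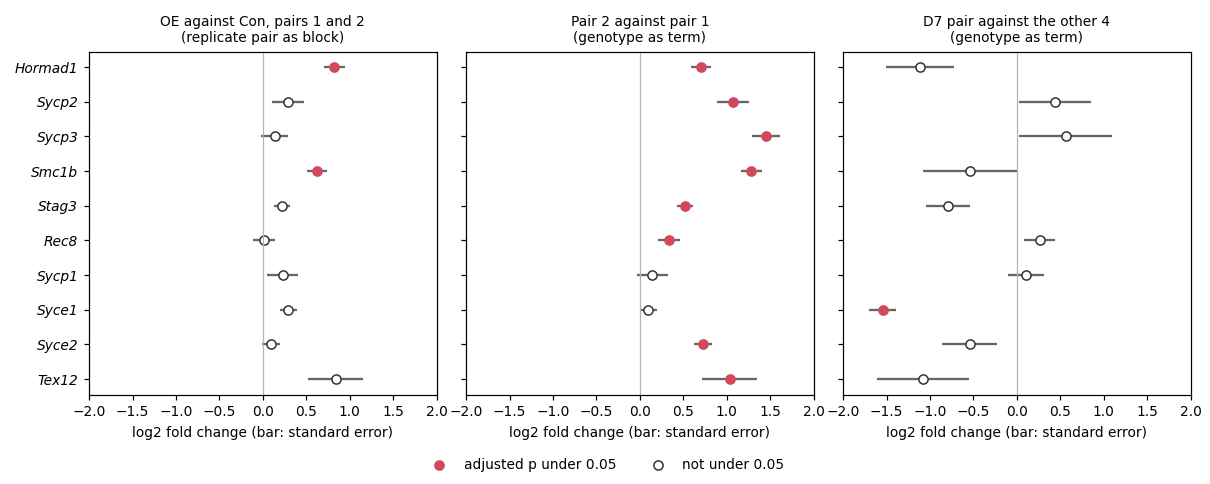
Log2 fold change of each of the 10 genes (horizontal axis, bars are standard errors from edgeR) for OE against Con with the pair as a block, for pair 2 against pair 1, and for the D7 pair against the other 4 libraries. Filled points passed an adjusted p of 0.05: *Hormad1* and *Smc1b* in the first panel, 8 genes in the second and *Syce1* in the last.

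The pair labelled D7 divided the genes. *Syce1* fell by 1.54 on the log2 scale against the other 4 libraries (SE 0.16, edgeR adjusted p = 0.00765), from a mean of 41.4 to 14.1 FPKM, with ratios to the mean of pairs 1 and 2 of 0.397 in Con and 0.297 in OE ESCs. It was the only one of the 10 genes that passed in edgeR, against 6.77% of 13809 genes called higher and 3.06% called lower. *Hormad1* (log2 fold change -1.12, edgeR adjusted p = 0.128) and *Stag3* (-0.79, edgeR adjusted p = 0.106) were below all 4 other libraries too, as 23.6% of genes were, and both passed with DESeq2 (adjusted p = 0.0235 and 0.0194), which called 10.9% of genes higher and 7.21% lower. *Tex12* (-1.08), *Syce2* (-0.54) and *Smc1b* (-0.54) did not pass in either tool. Above all 4 other libraries lay 0 of the 10 genes, against 23.6% of all genes.

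*Sycp3*, *Sycp2*, *Rec8* and *Sycp1* gave values of 0.56, 0.44, 0.26 and 0.11 on the log2 scale, with edgeR adjusted p of 0.37 to 0.766. The D7 libraries of *Sycp3* (28.8 and 26.4 FPKM), *Sycp2* (2.36 and 2.78 FPKM) and *Rec8* (15.2 and 16.3 FPKM) were close to those of pair 2, with ratios to it of 0.927 to 1.14, whereas *Syce1* had ratios to pair 2 of 0.360 and 0.288 and *Tex12* of 0.405 and 0.286. Both D7 libraries lay below both of pair 2 in 6 of the 10 genes (39.1% of all genes) and above both of pair 1 in 4 (*Sycp1*, *Sycp2*, *Sycp3* and *Rec8*, 42.4% of all genes). The median of the 10 genes was -0.54, against -0.03 over all genes. Without the Con library labelled D7 the edgeR adjusted p of *Syce1* was 0.0816, and without the OE library 0.214, while its value stayed at -1.73 and -1.34. Without the Con library of pair 1 *Stag3* passed (-0.96, edgeR adjusted p = 0.0200). Of the 9 fibroblast and feeder markers given above, 7 were tested, and 5 rose in these libraries (*Acta2*, *Postn*, *Col1a1*, *Col1a2* and *Col3a1*) and 0 fell. *Col1a1* was at 38.0 and 129 FPKM and *Acta2* at 58.2 and 138 FPKM, against at most 1.81 FPKM elsewhere. *Thy1* was at 23.0 and 21.0 FPKM against 30.8 to 53.0 FPKM elsewhere (edgeR adjusted p = 0.0593), and *Pdgfrb*, at 4.06 and 7.67 FPKM against 1.05 to 5.44, overlapped with the other libraries. Of the 9 ESC markers 4 fell, with *Pou5f1* at -0.88 on the log2 scale (edgeR adjusted p = 0.0196). Their part in the values of the 10 genes was not tested.

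Across the 6 libraries 9 of the 10 genes could be put in 2 orders, which were noticed after their values had been seen. *Sycp3*, *Sycp2* and *Rec8* were low in pair 1 and alike in the other pairs, with a Pearson correlation of log2(FPKM + 0.5) of 0.971 between *Sycp3* and *Rec8*, 0.950 between *Sycp3* and *Sycp2* and 0.922 between *Sycp2* and *Rec8*. *Hormad1*, *Tex12*, *Stag3*, *Syce1*, *Syce2* and *Smc1b* were, within each genotype, highest in pair 2 and lower in the D7 pair, with 0.959 between *Hormad1* and *Tex12*, 0.932 between *Hormad1* and *Stag3* and 0.928 between *Syce2* and *Smc1b*. *Syce1* was at 0.874 with *Stag3* and 0.848 with *Hormad1* but at 0.458 with *Smc1b*, the lowest value within this order. Between the orders values ran from -0.467 for *Syce1* and *Rec8* to 0.665 for *Smc1b* and *Sycp3*, so the orders were not fully apart. *Sycp1* followed neither order, and its highest value was 0.664, with *Sycp2*. These are descriptions over 6 libraries that share their pairs and genotypes. Each order held genes of more than 1 role, with axis and cohesin genes in both.

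**Figure D4:**
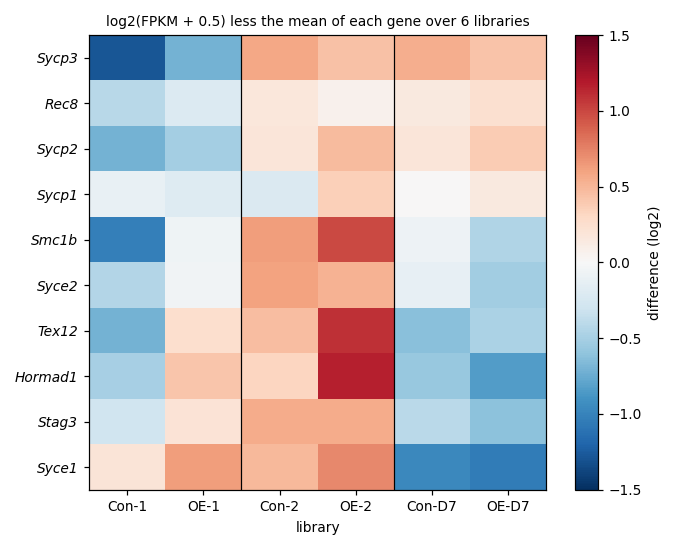
Level of each of the 10 genes in each library as log2(FPKM + 0.5) less the mean of that gene over the 6 libraries (colour scale from -1.5 to 1.5). *Sycp3*, *Rec8* and *Sycp2* are low in pair 1, and *Syce1*, *Stag3*, *Hormad1* and *Tex12* are low in the D7 pair.

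The meiotic cohesin subunits were set beside the mitotic subunits they replace. The level of *Smc1b* was 14.7%, 45.7% and 26.2% of that of *Smc1a* in Con ESCs of pairs 1, 2 and D7 and 28.8%, 57.5% and 22.0% in *Dppa3* OE ESCs. *Rec8* stood at 8.37% to 16.7% of *Rad21*. *Stag3*, in contrast, was found above both mitotic counterparts in all 6 libraries, at 186% to 398% of *Stag1* and 110% to 311% of *Stag2*. *Smc1a* stayed at 50.2 to 55.9 FPKM and *Smc3*, shared by both kinds of ring, at 62.1 to 77.9 FPKM. Of the 13 mitotic cohesin genes and regulators, 0 were called between OE and Con ESCs with the block (log2 fold change of -0.11 to 0.09, 0 of 13 at an unadjusted p under 0.05), and 0 in the D7 pair (1 of 13 higher at an unadjusted p under 0.05). Between pairs 2 and 1, 0 were higher and 3 lower, against 26% and 25.4% of all genes: *Cdca5*, which protects cohesion (-0.69, edgeR adjusted p = 2.09e-05), *Rad21* (-0.37, edgeR adjusted p = 5.17e-04) and *Stag1* (-0.28, edgeR adjusted p = 0.0082).

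**Figure D5:**
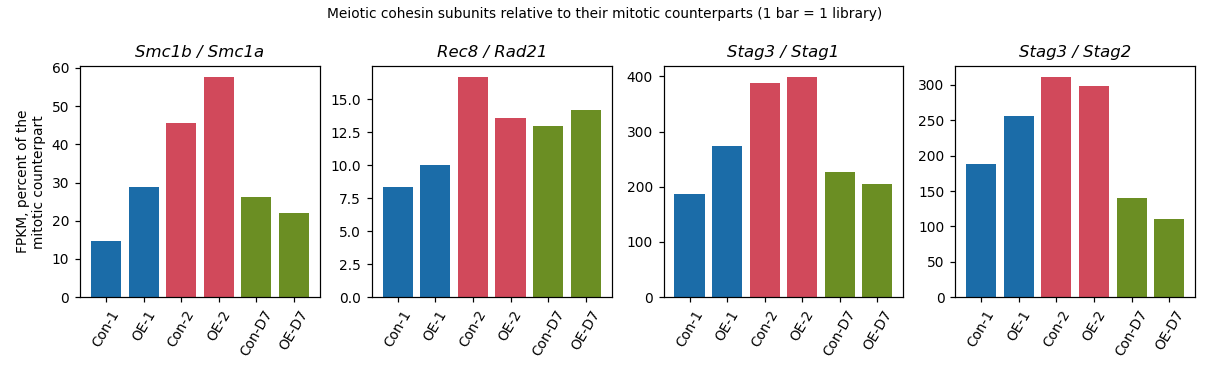
FPKM of each meiotic cohesin subunit gene as a percentage of its mitotic counterpart (vertical axis from 0), 1 bar per library, coloured by pair. *Smc1b* ranges from 14.7% to 57.5% of *Smc1a*, and *Stag3* exceeds 100% of *Stag1* and of *Stag2* in each library.

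Other genes of the pathway, taken from the lists of related genes, were compared in the same way. Of 9 further axis, cohesin and synaptonemal complex genes, 7 passed the filter on low values, and 0 were called between OE and Con ESCs with the block (median log2 fold change 0.22, 1 higher at an unadjusted p under 0.05). Between pairs 2 and 1, 5 of the 7 were higher and 1 lower, against 26% and 25.4% of all genes. Higher were *Sgo2a*, *Ccdc36*, *4930447C04Rik*, *Syce3*, another central element gene (1.03, edgeR adjusted p = 0.0395), and *Hormad2*, the paralog of *Hormad1* (0.51, edgeR adjusted p = 0.0248). Lower was *Trip13*, the ATPase that removes HORMA proteins from axes, at -0.77 (edgeR adjusted p = 2.65e-06). In the D7 pair 0 were called, with 1 lower at an unadjusted p under 0.05. *Rad21l*, the other meiotic kleisin, stayed at 0.07 to 0.35 FPKM and was not tested. Of 12 genes of meiotic entry and germ cell identity, 11 were tested and 2 rose in OE ESCs with the block, *Dazl*, an RNA-binding protein that licenses germ cells for meiosis (0.74, edgeR adjusted p = 8.73e-04), and *Mael*, a transposon-silencing factor (0.53, edgeR adjusted p = 0.031), against 0.763% of all genes. Without the block 0 of the 11 passed (0 at an unadjusted p under 0.05), and over all 6 libraries 0 passed with the block or without it in edgeR (an unadjusted p under 0.05 was reached by 1 gene upward and 1 downward with it and by 0 and 1 without it). Within the D7 pair the OE/Con ratio was 1.40 for *Dazl* and 0.816 for *Mael*. *Stra8*, the retinoic acid-induced gene of meiotic entry, was found at 1.96, 10.8 and 29.2 FPKM in Con and 2.84, 12.2 and 33.8 FPKM in OE ESCs of pairs 1, 2 and D7. Its level was thus lowest in pair 1, as for *Sycp3*, but highest in the D7 pair, and it was higher in pair 2 than in pair 1 (2.20, edgeR adjusted p = 3.04e-07).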

How the data were processed

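mRNA was measured in 6 mouse ESC libraries, made and sequenced by the authors' provider on BGISEQ-500. The paper's methods name Bowtie2, mm10 and RSEM, the submitters' processing notes HISAT and GRCm38.p6, and versions are not given in the sources used here. The authors deposited estimated counts per gene, not normalized, and FPKM values with 2 decimals, under a head that reads Expression. Both D7 libraries have counts under heads that read Average, although the values resemble single libraries. Of the genes, 19340 matched RefSeq by number, and 26 symbols that had become dates were restored.

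Counts were rounded and tested with edgeR 4.0.16 (TMM factors of 0.944 to 1.05, quasi-likelihood F test, R 4.3.3) over genes whose FPKM averaged 0.5 or more, 13494 for 4 libraries and 13809 for 6, with Benjamini-Hochberg adjustment over all of them and a threshold of 0.05. The filter kept all 10 genes. OE was compared with Con over pairs 1 and 2, and over all 6, where the D7 label entered as a term. Pair 2 was compared with pair 1, and D7 libraries with the 4 remaining ones, both with a genotype term. The difference in the OE effect was tested between them. No source pairs the libraries, but deviations from the genotype mean over 12565 genes correlated at 0.871, 0.745 and 0.881 between same-numbered libraries of the genotypes. Other values were -0.0252 or below, which follows in part from the centring, since deviations from a mean cancel within each genotype. On the same-number values the pair was used as a block, and the results with it are given beside the others. Alternatives were DESeq2 1.42.0, RLE size factors, no filter, limma 3.58.1 on log2(FPKM + 0.5 or 0.1) and leaving out each library. Fits that left out a library used no block between OE and Con ESCs, and no genotype term between pairs 2 and 1.

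The 10 genes, the gene lists and the motifs were chosen with earlier results of these data known. By rule the text names the 10 genes, *Dppa3*, the mitotic counterparts of the cohesin genes, up to 6 called genes of each list and the 5 genes most similar to the one of highest level. *Chpt1*, *Rad21l*, the markers named for level and the correlated pairs were chosen after their values were seen. Promoters came from RefSeq GRCm38.p6, exon overlap from GENCODE M21.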

Additional observations from a re-analysis of the deposited data

Results flagged for a closer look

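Within the D7 pair 4 of the 10 genes had a lower FPKM in *Dppa3* OE than in Con ESCs after a higher one in both other pairs, a pattern found in 14% of the 13809 genes tested. The OE/Con ratio there was 0.825 for *Hormad1*, against 1.92 and 1.82 in pairs 1 and 2, and 0.765 for *Smc1b*, against 2.01 and 1.29. It was 0.865 for *Stag3*, against 1.42 and 1.003, and 0.943 for *Syce1*, against 1.36 and 1.18. *Stag3* was thus nearly equal between genotypes in pair 2. The D7 pair is 1 library per genotype. The test of the difference in the OE effect gave an edgeR adjusted p of 1 for each of the 4 genes, and their log2 differences lay between -1.14 and -0.40.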

How the results depend on the processing

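Entering the replicate pair as a block moved the genes called between OE and Con ESCs over pairs 1 and 2 from 0 to 103 higher and 17 lower, and the calls among the 10 genes from 0 to 2. DESeq2 called 2 genes higher without the block, and with it 32 higher, 2 lower and 1 of the 10. Over 6 libraries the block gave 1 gene lower and DESeq2 6 higher and 1 lower. DESeq2 with the block, chosen there after seeing the data, gave 58 and 11. DESeq2 called 1573 genes higher and 2028 lower between pairs 2 and 1, 1499 and 995 with 3 of the 10 lower in the D7 pair, and 1 in each direction for the difference in the OE effect. The OE value of *Rec8* over 4 libraries changed sign to -0.0041 with DESeq2 or RLE size factors and -0.0067 without the filter, and that of *Sycp3* over 6 to 0.032 with the block and 0.052 with DESeq2 and the block. The cause of these shifts was not tested. The block changed no other call. No block could be fitted for the D7 pair, which is a pair of its own.

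Leaving out 1 library gave 1 to 81 genes higher, 0 to 4 lower and 0 to 2 of the 10 higher between OE and Con ESCs over 4 libraries. The log2 fold change then ran from -0.037 to 0.47 for *Sycp1*, -0.36 to 0.91 for *Sycp2*, -0.63 to 1.21 for *Sycp3*, -0.36 to 0.60 for *Syce2*, -0.14 to 0.60 for *Stag3*, -0.22 to 0.27 for *Rec8*, -0.081 to 1.53 for *Smc1b*, 0.30 to 1.61 for *Tex12*, 0.43 to 1.22 for *Hormad1* and 0.20 to 0.39 for *Syce1*. Over 6 libraries it ran from -0.093 to 0.61 for *Sycp2*, -0.42 to 0.58 for *Sycp3*, -0.38 to 0.14 for *Syce2*, -0.19 to 0.22 for *Stag3*, -0.076 to 0.19 for *Rec8*, -0.22 to 0.66 for *Smc1b*, 0.25 to 1.00 for *Tex12*, 0.11 to 0.82 for *Hormad1*, 0.039 to 0.33 for *Sycp1* and 0.082 to 0.29 for *Syce1*. Between pairs 2 and 1 it gave 1898 to 2897 genes higher, 2047 to 2916 lower and 4 to 8 of the 10 higher, with -0.16 to 0.42 for *Sycp1*, -0.092 to 0.29 for *Syce1*, 0.23 to 1.17 for *Hormad1*, 0.55 to 1.68 for *Tex12*, 0.30 to 0.74 for *Stag3* and 0.83 to 1.78 for *Smc1b*. For the D7 pair it gave 0 to 1574 genes higher, 0 to 886 lower and 0 to 2 of the 10 lower, with -1.71 to -0.57 for *Hormad1*, -1.004 to -0.088 for *Smc1b*, -0.77 to -0.30 for *Syce2*, 0.29 to 1.07 for *Sycp3*, 0.25 to 0.73 for *Sycp2* and 0.013 to 0.23 for *Sycp1*. The lowest of the counts, 0, came when a D7 library was left out, so that 1 library stood for the pair. Fits that left out a library had no block between OE and Con ESCs and no genotype term between pairs 2 and 1. Those values can therefore mix the differences between pairs and between genotypes. Of 230 values of the 10 genes under the other alternatives, 217 kept direction and call. A gene that passed in neither fit counts as keeping its call. None of the 10 passed in the main fits of OE against Con or of the difference in the OE effect. Much of this count is therefore of genes that passed in neither fit. Depth limits *Tex12* most.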

Other observations

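Genes of meiotic recombination and telomere attachment followed the axis genes in direction between pairs, with 11 of 21 tested higher in pair 2 than in pair 1 and 2 lower (median log2 fold change 0.56, against 26% and 25.4% of all genes). Among them *Cntd1*, a crossover factor, was at 2.02 and *Dmc1*, the meiotic recombinase, at 0.87, whereas *Ccnb1ip1*, a ubiquitin ligase that limits crossover sites, was at -0.70 (edgeR adjusted p = 3.11e-06, 2.47e-04 and 7.36e-04). Between OE and Con ESCs with the block 0 of the 21 passed (6 were higher at an unadjusted p under 0.05). In the D7 pair 0 of 23 were higher and 2 lower, against 6.77% and 3.06% of all genes. The 2 were *Mlh3* (-1.09, edgeR adjusted p = 0.0148) and *Hsf2bp* (-0.93, edgeR adjusted p = 0.047).

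Of 14 genes of PRC1.6, 0 were called between OE and Con ESCs with the block (1 higher at an unadjusted p under 0.05). Between pairs 2 and 1, 10 of the 14 were lower and 0 higher (median -0.38), against 25.4% and 26% of all genes, among them *L3mbtl2* (-0.60), *Tfdp1*, the dimer partner of E2F proteins (-0.54), and *Max* (-0.44), with edgeR adjusted p of 2.22e-05, 2.20e-05 and 2.38e-04. In the D7 pair 1 of the 14, *Yaf2*, was higher (0.92, edgeR adjusted p = 0.0469) and 0 lower, against 6.77% and 3.06% of all genes. Of 8 genes of DNA methylation, 0 were called between OE and Con ESCs of pairs 1 and 2 in edgeR with or without the block (0 at an unadjusted p under 0.05 in both). Over all 6 libraries 0 were called in edgeR as well, and an unadjusted p under 0.05 was reached by 1 gene upward and 3 downward with the block and by 0 without it. In pair 2, 1 was higher and 5 lower than in pair 1, with *Uhrf1*, which guides maintenance methylation, at -0.43 (edgeR adjusted p = 7.13e-05). In the D7 pair 1 of the 8, *Dnmt3a*, was higher (0.69) and 3 were lower, against 6.77% and 3.06% of all genes. The 3 were *Tet1*, *Tet2* and *Dnmt3l* (-1.40, -1.30 and -1.20).

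For *Syce2*, the gene of highest level, the genes of most similar order over the 6 libraries were *Glo1*, *B230311B06Rik*, *Apool*, *Kif7* and *Tm7sf3*, with a Pearson correlation of log2(FPKM + 0.5) of 0.995 to 0.999 among 12555 genes compared. A correlation of 0.95 or more was reached by 200 genes, and the libraries share pairs and genotypes.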
